A study of Mus musculus with 6 samples.

Results

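The regulators of G protein signaling (RGS) examined here are 9 genes, Rgs1, Rgs2, Rgs3, Rgs10, Rgs13, Rgs14, Rgs16, Rgs18 and Rgs19, taken by symbol from the 39179 genes of an RNA-Seq table of mouse B cells. All 9 had a row in the table. Messenger RNA was profiled in germinal center (GC) B cells, sorted as Fas+GL7+ B cells, and in naive (resting) B cells, sorted as Fas-GL7- B cells, from Peyer's patches, the gut-associated lymphoid follicles of the ileum. Both populations came from female wild-type (WT) littermates of the C57BL/6 strain at 12 weeks of age. They share the genotype, no treatment is named for either, and they differ in the sort gate. Of each population 3 pools were sequenced as biological replicates, each made from several mice, so that differences between single animals cannot be seen.

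Signals from chemokine, lipid and other G protein-coupled receptors are carried by G alpha subunits, which are active while they hold GTP and are switched off when GTP is hydrolyzed. RGS proteins bind the active G alpha subunit through their RGS domain and speed up this hydrolysis, and so shorten the signal. In B cells they are known as brakes on the migration of cells toward chemokines such as CXCL12 and CXCL13, which place B cells in the follicle and in the zones of the GC. Rgs1, Rgs2, Rgs3, Rgs13, Rgs16 and Rgs18 belong to the R4 subfamily, mostly small proteins with little more than the RGS domain. Rgs10 and Rgs14 belong to the R12 subfamily and Rgs19 to the RZ subfamily.

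The sort was checked on the genes that define it. Fas was at 108.2, 115.4 and 119.1 TPM (transcripts per 1000000, a level per transcript length) in the GC pools and at 3.05, 3.59 and 3.03 TPM in the naive pools. Bcl6, the transcription factor of the GC program, was at 241.8 to 258.1 TPM and 46.9 to 51.6 TPM. The B cell markers Ms4a1 and Cd79a, which encode CD20 and a chain of the B cell receptor complex, were high in all pools, Ms4a1 at 931.2 ± 25 TPM in GC and 717.3 ± 7.88 TPM in naive cells and Cd79a at 1077 ± 21.2 and 2349 ± 46.1 TPM (SD, n = 3 pools each). The depth of the pools, estimated from the steps between low values, was between 9550000 and 16050000 reads. It is approximate, since 69.0% to 74.5% of the low values were within 0.15 of a whole number of reads.

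RefSeq (GRCm38.p6) gives a window before the transcript start for 6 of the 9 members, namely Rgs2, Rgs3, Rgs10, Rgs13, Rgs16 and Rgs19. The 250 bases before the start are shown for Rgs13, Rgs10 and Rgs2, the members with a window whose transcripts were most raised in GC B cells. All lie on the minus strand and are written 5′ to 3′ toward the start, at chr1:144177373-144177622 for Rgs13, chr7:128418173-128418422 for Rgs10 and chr1:144004150-144004399 for Rgs2. The Rgs13 and Rgs2 windows end at the outer end of the annotated gene, and the Rgs10 window belongs to a start inside the annotated gene. Capitals mark E-boxes (CANNTG, which reads the same on both strands) in the Rgs13 window and GC boxes (GGGCGG, on either strand) in the others.
Rgs13: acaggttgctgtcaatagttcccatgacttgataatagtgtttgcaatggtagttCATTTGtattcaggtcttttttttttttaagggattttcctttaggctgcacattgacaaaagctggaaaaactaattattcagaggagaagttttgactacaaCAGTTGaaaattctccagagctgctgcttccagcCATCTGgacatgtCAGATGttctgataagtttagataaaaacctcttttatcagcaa
Rgs10: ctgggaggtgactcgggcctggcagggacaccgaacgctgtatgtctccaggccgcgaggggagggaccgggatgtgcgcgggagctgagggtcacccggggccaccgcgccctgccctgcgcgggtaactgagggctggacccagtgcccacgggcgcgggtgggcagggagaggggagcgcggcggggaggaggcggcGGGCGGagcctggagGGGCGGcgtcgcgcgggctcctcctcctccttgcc
Rgs2: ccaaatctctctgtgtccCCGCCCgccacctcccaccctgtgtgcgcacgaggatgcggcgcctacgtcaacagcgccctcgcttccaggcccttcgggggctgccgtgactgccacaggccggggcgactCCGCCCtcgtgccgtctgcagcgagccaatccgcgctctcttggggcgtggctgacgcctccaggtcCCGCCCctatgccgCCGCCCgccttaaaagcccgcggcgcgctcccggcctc

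The Rgs13 window is poor in G and C, with 36.0% of its bases, against a median of 52.4% over 32851 mouse windows of the same length. It holds 0 CpG dinucleotides, as do 7.87% of all windows, whereas the median window holds 6. Its 4 E-boxes begin 195, 91, 57 and 44 bases before the start. At least 1 E-box is present in 66.2% of all windows and at least 4 in 3.84%. The other windows shown are of the opposite kind. The Rgs10 window has 76.4% G and C, 27 CpG and 2 GC boxes, beginning 50 and 35 bases before the start. The Rgs2 window has 72.4% G and C, 30 CpG and 4 GC boxes, and neither window has an E-box. GC boxes, each of which contains a CpG, occur at least once in 32.7% of all windows, at least 2 times in 16.7% and at least 4 times in 4.09%. The Rgs2 window also has 1 CCAAT box (CCAAT), a sequence found in 33.8% of windows, 94 bases before the start. A TATA box (TATAAA, 12.4% of windows) and the letters GAGGAA, a longer ETS-type sequence (23.3%), were searched on both strands too. Neither is in these 3 windows. Shorter ETS sequences such as GGAA were not searched. These matches describe letters, and binding was not measured.

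RGS transcripts differed widely between GC and naive B cells, and in both directions. Rgs13, Rgs10, Rgs1, Rgs2 and Rgs16 were higher in GC B cells, and Rgs18, Rgs3, Rgs14 and Rgs19 were higher in naive B cells. All 9 members had at least 1 TPM in at least 3 pools and entered the limma fit over 12785 genes, and all 9 were called, which here means a Benjamini-Hochberg adjusted p under 0.05 over all of these genes. The populations were far apart in general, since 65.6% of all genes tested were called, 35.5% higher and 30.1% lower in GC B cells, so that a call by itself sets the members little apart. Likewise, the GC and naive pools did not overlap for any of the 9 members, nor for 70.7% of all genes tested. The median log2 fold change of the members was 0.50, beside 0.03 over all genes. This median is the value of Rgs16, a gene close to the limit of the filter, and does not describe a common shift of the members. Rgs13 and Rgs16 reached 1 TPM in the GC pools only, and Rgs1 and Rgs18 mostly in the population in which they were high, so the filter favored a difference for these genes. Among the pathway genes named below the same holds for Rgs9, Gnaz, Gnb5, Gng3, S1pr2 and Gpsm2, which reached 1 TPM in GC pools only, and for Adrbk2, which reached it in naive pools only. Rgs11, Rgs12, Gnb4, Ccr7 and Pik3r5 reached 1 TPM in all pools of the population with the higher mean and in some pools of the other. In bulk samples like these, fewer expressing cells and less RNA per cell cannot be told apart. Fold changes below are limma estimates on the log2(TPM + 1) scale, which understates the change of genes with low levels, and ratios are of mean TPM.

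**Figure D1:**
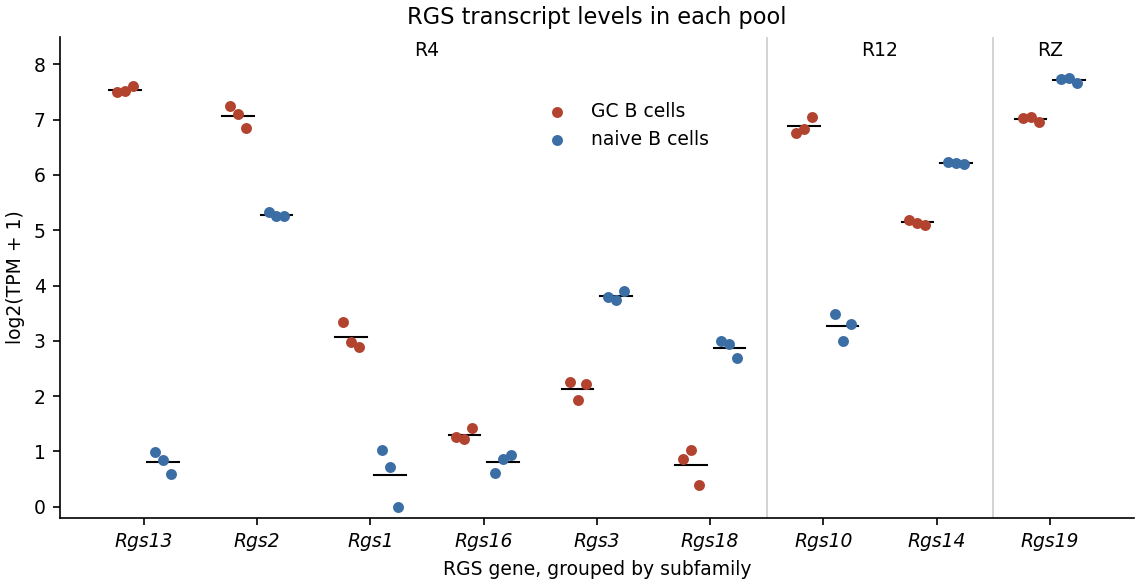
Level of each RGS gene in each pool, as log2(TPM + 1), for GC (red) and naive (blue) B cells, with points for the 3 pools of each population and a line at their mean, grouped by subfamily. The pools of the populations do not overlap for any of the 9 genes, and the widest gap is that of Rgs13, from at most 0.999 TPM in naive to at least 179.7 TPM in GC B cells.

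Rgs13 (ENSMUSG00000051079; GRCm38 chr1:144137386-144177372), a small R4 protein known to restrain chemokine responses of GC B cells, was the most abundant member in GC B cells. Its level was 179.7, 183.1 and 193.6 TPM in GC replicates 1, 2 and 3, and 0.999, 0.808 and 0.503 TPM in naive replicates 1, 2 and 3. The gene was thus under 1 TPM in every naive pool and closely alike in the GC pools. The mean was 185.5 ± 7.24 TPM in GC and 0.77 ± 0.25 TPM in naive cells (SD, n = 3 pools each), a ratio of 240.8. The log2 fold change was 6.73 ± 0.117 (SE, limma adjusted p = 1.67e-07), which ranked 13th among the rises of all 12785 genes. In GC B cells its level exceeded that of 93.8% of the genes tested.

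Rgs2 (ENSMUSG00000026360; chr1:143999338-144004149) differs from its R4 relatives in its preference for Gq over Gi subunits. The GC pools had 151.4, 136.0 and 115.0 TPM and the naive pools 39.1, 37.2 and 37.4 TPM. The GC pools spread more than the naive pools, and the lowest GC pool still lay well above the highest naive pool. The means were 134.1 ± 18.3 and 37.9 ± 1.09 TPM, a 3.54-fold difference, with a log2 fold change of 1.79 ± 0.102 (limma adjusted p = 1.34e-05).

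Rgs1 (ENSMUSG00000026358; chr1:144244669-144249104), which is known to dampen chemokine-driven migration of B cells, was expressed at a far lower level. It was at 9.14, 6.87 and 6.40 TPM in GC B cells and at 1.04, 0.643 and 0 TPM in naive cells, where replicate 3 was listed at 0. Every GC pool was above every naive pool. The means were 7.47 ± 1.47 and 0.561 ± 0.525 TPM and the log2 fold change was 2.49 ± 0.286 (limma adjusted p = 3.50e-04). Because the naive level is close to 0, the size of this change rested on the pseudocount, and it was 4.09 with a pseudocount of 0.1 and 5.28 with 0.01.

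Rgs16 (ENSMUSG00000026475; chr1:153740353-153745468), a regulator of Gi and Gq subunits, was close to the limit of the filter. Its level was 1.39, 1.34 and 1.69 TPM in GC and 0.527, 0.821 and 0.917 TPM in naive cells. The groups did not overlap, but the difference was small, at 0.50 ± 0.151 on the log2 scale (limma adjusted p = 0.0249). The call was lost with quantile normalization (0.39, limma adjusted p = 0.0648), without GC replicate 3 (0.44, adjusted p = 0.0719), without naive replicate 1 (0.40, adjusted p = 0.0788) and without naive replicate 2 (0.53, adjusted p = 0.051). With pseudocounts of 0.1 and 0.01 the log2 fold change was 0.90 and 0.99.

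The other R4 members were higher in naive B cells. Rgs3 (ENSMUSG00000059810; chr4:62559835-62703019), a regulator of Gi and Gq with long and short isoforms, was at 3.80, 2.80 and 3.68 TPM in GC and at 12.8, 12.4 and 14.02 TPM in naive cells. The naive mean was 3.82 times the GC mean, and the log2 fold change was -1.68 ± 0.126 (limma adjusted p = 4.78e-05). Rgs18 (ENSMUSG00000026357; chr1:144752683-144775427), best known from platelets and megakaryocytes, was at 0.813, 1.04 and 0.307 TPM in GC and at 6.95, 6.65 and 5.42 TPM in naive cells. Each naive pool was above each GC pool for both genes. The naive mean of Rgs18 was 8.82 times the GC mean, with a log2 fold change of -2.11 ± 0.20 (limma adjusted p = 1.39e-04), or -3.09 and -3.28 with pseudocounts of 0.1 and 0.01. Of 7 platelet markers, Pf4, Ppbp, Gp6 and Treml1 were listed at 0 in all pools, and the summed level of the list was 1.74 to 4.29 TPM in naive and 2.58 to 3.99 TPM in GC pools, so that it did not separate the populations.

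Outside the R4 subfamily, Rgs10 (ENSMUSG00000030844; chr7:128373621-128419506), a small R12 protein that acts on Gi subunits, was the only member to be higher in GC B cells. It was at 107.6, 113.5 and 131.7 TPM in GC and at 10.2, 7.02 and 8.86 TPM in naive cells, and the naive level lay an order of magnitude below the GC level in each pool. The mean was 117.6 ± 12.6 TPM against 8.68 ± 1.58 TPM, a ratio of 13.55, with a log2 fold change of 3.62 ± 0.14 (limma adjusted p = 2.43e-06). Its R12 relative Rgs14 (ENSMUSG00000052087; chr13:55369732-55384687), which also carries Ras-binding domains and a GoLoco motif that holds GDP-bound Gi, went the other way. Rgs14 was at 35.6, 34.1 and 33.3 TPM in GC and at 74.0, 73.8 and 72.3 TPM in naive cells. The naive mean was 2.14 times the GC mean and the log2 fold change was -1.07 ± 0.05 (limma adjusted p = 5.68e-06).

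Rgs19 (ENSMUSG00000002458; chr2:181688419-181694537), also known as GAIP, is a Gi regulator anchored to membranes and was abundant in both populations. It was at 129.7, 131.5 and 122.8 TPM in GC and at 211.7, 213.6 and 203.0 TPM in naive cells. The difference was the smallest in fold among the members lower in GC B cells, yet far outside the spread of the pools. The naive mean was 1.64 times the GC mean, with a log2 fold change of -0.71 ± 0.046 (limma adjusted p = 2.41e-05).

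**Figure D2:**
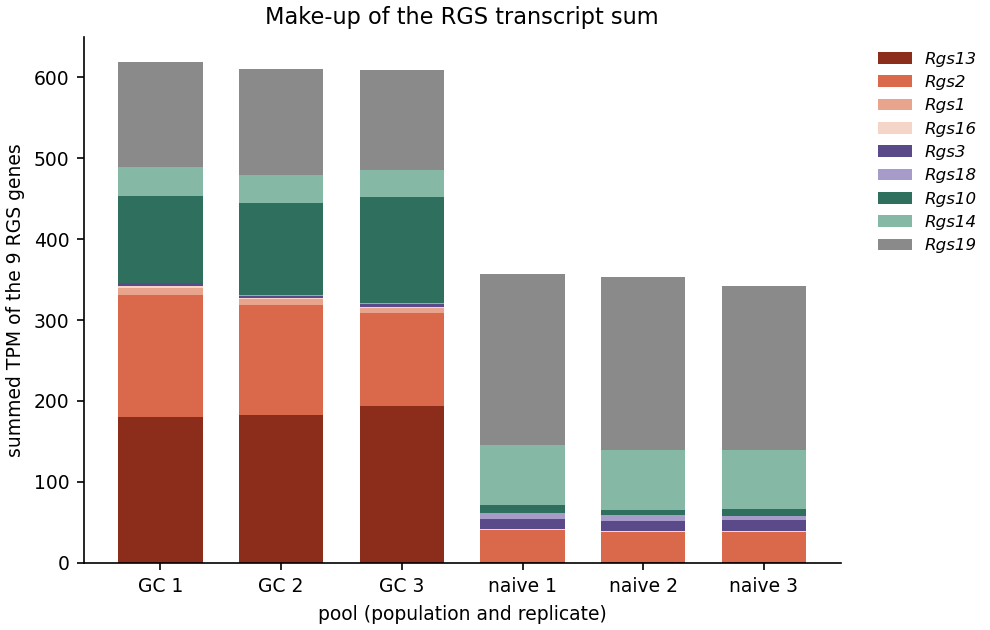
Summed TPM of the 9 RGS genes in each pool, with each bar divided by gene. The GC pools reach 608.4 to 619.1 TPM, made up mainly of Rgs13, Rgs2, Rgs19 and Rgs10, and the naive pools reach 342.4 to 357.3 TPM, made up mainly of Rgs19 and Rgs14.

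Added up, the 9 members amounted to 619.1, 610.1 and 608.4 TPM in the GC pools and to 357.3, 352.9 and 342.4 TPM in the naive pools, a mean of 612.6 ± 5.76 against 350.9 ± 7.65 TPM and a ratio of 1.75. This sum is a description and was not tested. The excess lay in the R4 members, which summed to 332.7 ± 12.9 TPM in GC and 59.4 ± 1.78 TPM in naive cells. The R12 and RZ members together amounted to 279.9 ± 7.49 and 291.5 ± 6.37 TPM, and their pools overlapped, although within this sum Rgs10 was higher and Rgs14 and Rgs19 were lower in GC B cells. On the deposited scale and after median-of-ratios scaling the latter sums no longer overlapped, at 202.0 ± 4.25 against 218.1 ± 2.67 FPKM and at 274.4 ± 5.64 against 294.0 ± 5.18 scaled TPM.

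The make-up of the RGS pool therefore differed between the populations. In GC B cells, Rgs13 made up 30.3 ± 1.42% of the summed RGS level, Rgs2 21.9 ± 2.80%, Rgs19 20.9 ± 0.682% and Rgs10 19.2 ± 2.20%. In naive B cells, Rgs19 alone made up 59.7 ± 0.725%, Rgs14 20.9 ± 0.213% and Rgs2 10.8 ± 0.234%. Rgs13 made up 0.218 ± 0.0669% of the naive sum. By level, the order in GC B cells was Rgs13, Rgs2, Rgs19, Rgs10, Rgs14, Rgs1, Rgs3, Rgs16 and Rgs18. The pool ranges of Rgs2 and Rgs19 overlapped, as did those of Rgs19 and Rgs10, and all other neighbors were separated. In naive B cells the order was Rgs19, Rgs14, Rgs2, Rgs3, Rgs10, Rgs18, Rgs13, Rgs16 and Rgs1, and only the ranges of the last 3 genes overlapped with their neighbors.

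On chromosome 1, Rgs2, Rgs13, Rgs1, Rgs21 and Rgs18 lie in this order within 776 kb (GRCm38.p6), and RefSeq annotates no other protein-coding gene among the 10 genes of this interval. The cluster did not have a single direction. Rgs2, Rgs13 and Rgs1 were higher in GC B cells, with log2 fold changes of 1.79, 6.73 and 2.49, whereas Rgs18 at the far end was lower, with -2.11. Levels differed as much as directions, since the mean GC level was 134.1 TPM for Rgs2, 185.5 TPM for Rgs13, 7.47 TPM for Rgs1 and 0.719 TPM for Rgs18. Rgs21 was not analyzed here. Rgs16 lies on the same chromosome outside this cluster.

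The genes whose pattern over the 6 pools was most like that of Rgs13, by the root mean square difference of centered log2 values, were Mybl1 (0.113), a transcription factor of GC B cells, and the cell cycle genes Cdk1 (0.152) and Mki67 (0.162). Mki67, for example, was at 228.2 ± 1.04 TPM in GC and 0.785 ± 0.107 TPM in naive cells. For Rgs18, the member with the most negative fold change, the nearest were Cryl1 (0.0699), A930006K02Rik (0.107) and Tmem86a (0.107). Cryl1 was at 1.37 ± 0.515 TPM in GC and 9.71 ± 0.759 TPM in naive cells. With 2 populations, such a likeness reflects mainly a shared difference between them, and other genes with a difference of the same size are alike as well.

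**Figure D3:**
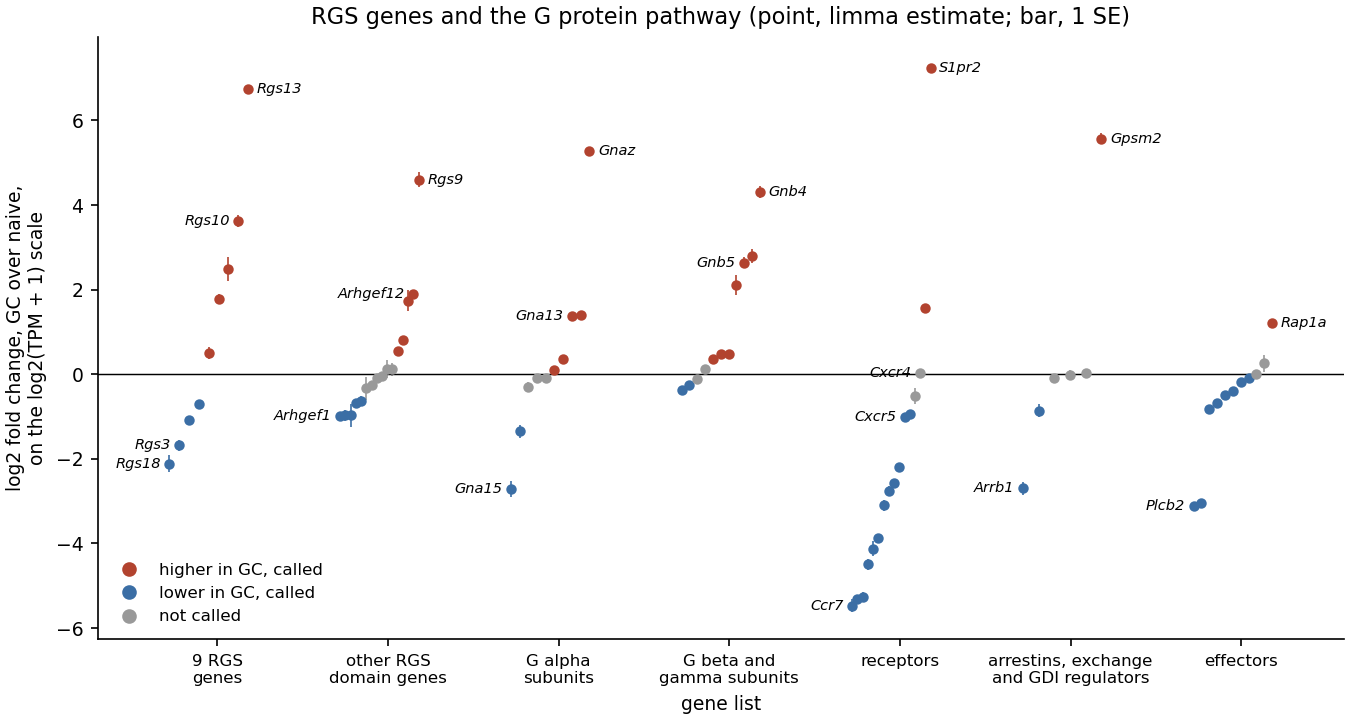
Log2 fold change of GC over naive B cells on the log2(TPM + 1) scale, with 1 SE, for each tested gene of the 9 RGS genes and of 6 lists of the G protein pathway, sorted by value within each list. Red genes were called higher in GC, blue genes lower, and gray genes were not called. RGS genes spread from -2.11 to 6.73, and the receptors range from -5.47 for Ccr7 to 7.24 for S1pr2.

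Other genes with an RGS domain also divided between the populations. Of 27 listed, 26 had a row, 16 were tested, 5 were called higher and 5 lower in GC B cells, and 6 were not called. The share called, 62.5%, was close to that of all genes. Rgs9, known as the regulator that ends the light response in photoreceptors, was at 30.6, 35.0 and 37.6 TPM in GC and at 0.675, 0.616 and 0.142 TPM in naive cells, which is a log2 fold change of 4.60 ± 0.178 (limma adjusted p = 2.44e-06). Gnb5, the beta subunit with which the Rgs9 protein pairs, was at 6.49 ± 0.470 TPM in GC and 0.204 ± 0.0835 TPM in naive cells (log2 fold change 2.64 ± 0.126, limma adjusted p = 6.12e-06). Rgs12, an R12 relative of Rgs10 and Rgs14, was at 7.6 ± 1.13 against 1.65 ± 0.797 TPM (1.74 ± 0.255, limma adjusted p = 0.00109). Rgs11 was at 1.15 ± 0.733 and 1.61 ± 0.305 TPM and was not called (limma adjusted p = 0.313).

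Among the guanine nucleotide exchange factors that carry an RGS domain and are activated by G12 and G13, Arhgef1 was the most abundant, at 580.8 ± 18.4 TPM in GC and 1149 ± 66.8 TPM in naive cells (log2 fold change -0.98 ± 0.053, limma adjusted p = 1.04e-05). Arhgef11 was lower in GC B cells as well (-0.63 ± 0.11, adjusted p = 0.0025), and Arhgef12 was higher, at 15.1 ± 0.578 against 3.31 ± 0.352 TPM (1.9 ± 0.102, adjusted p = 1.02e-05). This class therefore did not move in a single direction. Of the receptor kinases, Grk6 was lower in GC B cells (249.5 ± 8.66 against 398.8 ± 24.2 TPM, -0.67 ± 0.056, limma adjusted p = 7.87e-05), as were Adrbk2 (0.0601 ± 0.0162 against 1.08 ± 0.0208 TPM, -0.97 and down to -3.98 over the alternatives) and Grk4 (-0.97 ± 0.272, adjusted p = 0.019), whose call was lost without GC replicate 1. Adrbk1, or GRK2, was at 462.6 ± 4.68 and 492.7 ± 35.3 TPM and was not called, nor was Grk5. Of the sorting nexins with an RGS domain, Snx13 (0.55 ± 0.098) and Snx25 (0.81 ± 0.094) were higher in GC B cells and Snx14 (-0.05 ± 0.074) was not called. Axin1 (0.12 ± 0.206) and Akap10 (-0.26 ± 0.103) were not called. Calls appeared under 6 of the 17 alternative settings for Akap10, 4 for Adrbk1 and 2 for Snx14.

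The G alpha subunits were listed across all classes, whether or not an RGS member acts on them. Of 15 listed genes 10 were tested, of which 5 were higher in GC B cells, 2 were lower and 3 were not called. The share called was 70.0%, beside 65.6% of all genes. Gnai2, the main Gi subunit of lymphocytes and a target of most RGS members here, was high and close in both populations, at 553.2, 567.6 and 570.2 TPM in GC and 526.8, 535.2 and 512.4 TPM in naive cells. Its log2 fold change of 0.10 ± 0.035 was called (limma adjusted p = 0.0402), but the call was lost in 13 of 17 alternatives and the sign turned with quantile normalization. Gnai3 was at 62.5 ± 1.32 and 65.9 ± 1.5 TPM (limma adjusted p = 0.198) and Gnaq at 11.6 ± 1.67 and 14.4 ± 1.04 TPM (adjusted p = 0.0667). Neither was called, although 4 alternatives called Gnai3 lower in GC B cells and 6 called Gnaq lower.

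Larger differences were seen for other G alpha subunits. Gna13, to which S1PR2 couples, was at 180.1 ± 10.8 TPM in GC and 69.4 ± 6.43 TPM in naive cells (1.37 ± 0.081, limma adjusted p = 1.65e-05), and Gna12 changed in the same direction (1.41 ± 0.074). Gnaz, a Gi class subunit that is turned off slowly by itself and is a known substrate of the RZ subfamily, was at 39.8, 39.1 and 39.3 TPM in GC and at 0.108, 0 and 0.0387 TPM in naive cells. Its log2 fold change was 5.27 ± 0.095 (limma adjusted p = 1.89e-07), and it ranged from 4.83 to 10 over the alternatives. Gna15, of the Gq class, was lower in GC B cells, at 2.44 ± 0.887 against 21.0 ± 1.18 TPM (-2.71 ± 0.194, adjusted p = 3.86e-05). Of the G beta and gamma subunits, 11 of 18 were tested, 7 were higher and 2 lower in GC B cells, a share called of 81.8% beside 65.6% of all genes. The list includes Gnb2l1 (RACK1), a scaffold protein related to G beta that is not a subunit of the G protein trimer, which was among the 2 lower genes (-0.25 ± 0.043). Gnb4 was at 36.5 ± 2.13 against 0.925 ± 0.324 TPM (4.30 ± 0.146, adjusted p = 1.42e-06), and Gng12 (2.80 ± 0.168) and Gng3 (2.11 ± 0.228) were higher too. Over the alternatives Gnb5 ranged up to 5.01, Gng3 up to 5.15 and Gnb2l1 from -0.44 to -0.09.

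The receptors that feed this pathway were mostly lower in GC B cells. Of 19 listed, 16 were tested, 2 were called higher and 12 lower, so that 87.5% were called beside 65.6% of all genes, and the median log2 fold change was -2.67 beside 0.03 over all genes. Ccr7, which draws B cells toward the T cell zone, was at 1.01 ± 0.336 TPM in GC and 87.6 ± 8.46 TPM in naive cells (-5.47 ± 0.15, limma adjusted p = 6.19e-07). Gpr183, the oxysterol receptor of the outer follicle, was at 1.3 ± 0.339 and 86.2 ± 1.24 TPM (-5.26 ± 0.117, adjusted p = 3.14e-07). S1pr1, the receptor for exit from lymphoid tissue, was at 4.57 ± 0.311 and 221.9 ± 20.4 TPM (-5.32 ± 0.086, adjusted p = 1.36e-07). In contrast, S1pr2, the receptor that confines B cells to the GC, was at 261.4, 269.6 and 272.4 TPM in GC and at 0.999, 0.671 and 0.697 TPM in naive cells (7.24 ± 0.089, adjusted p = 7.61e-08). It and S1pr3 (1.56 ± 0.103) were the receptors called higher.

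The receptors for CXCL12 and CXCL13 differed less. Cxcr4 was at 347.2, 362.5 and 358.1 TPM in GC and at 398.9, 341.8 and 312.2 TPM in naive cells. The pools overlapped and the log2 fold change was 0.03 ± 0.089 (limma adjusted p = 0.803), with a negative sign on the deposited scale, after quantile and median-of-ratios scaling, without naive replicate 3 and with a correction for GC content and length, under which it was called. Cxcr5 was at 142.9, 142.5 and 147.7 TPM in GC and 290.0, 290.2 and 288.5 TPM in naive cells, a log2 fold change of -1.0 ± 0.036 (limma adjusted p = 1.82e-06). The Cxcr5 pools were close together within each population and did not overlap between them.

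Of the other regulators of G protein cycling and receptor shutdown, 6 of 8 were tested, 1 was higher and 2 were lower in GC B cells, a share called of 50% beside 65.6% of all genes. Gpsm2 (LGN), which like Rgs14 holds GDP-bound Gi through GoLoco motifs and is known for orienting the mitotic spindle, was at 69.1, 54.4 and 67.9 TPM in GC and at 0.513, 0.260 and 0.323 TPM in naive cells (5.57 ± 0.133, limma adjusted p = 3.81e-07). Gpsm1 was lower (-0.86 ± 0.162), and so was Arrb1, beta-arrestin 1, at 3.58 ± 0.936 against 28.1 ± 0.77 TPM (-2.69 ± 0.155, adjusted p = 1.46e-05). Of 23 effectors, 11 were tested, 1 was higher and 8 were lower, a share called of 81.8% with a median of -0.39, beside 65.6% and 0.03 over all genes. Plcb2, a phospholipase opened by G beta-gamma, was at 6.26 ± 0.809 against 61.4 ± 2.64 TPM (-3.11 ± 0.10, adjusted p = 1.16e-06). Pik3r5, a regulatory subunit of phosphoinositide 3-kinase gamma, was at 1.02 ± 0.129 against 15.7 ± 0.328 TPM (-3.05 ± 0.102, limma adjusted p = 1.34e-06). Adcy7, an adenylyl cyclase, was lower by less (-0.82 ± 0.073). Rap1a, a small GTPase of adhesion, was the effector called higher, at 147.8 ± 2.34 against 62.9 ± 5.75 TPM (1.22 ± 0.07, adjusted p = 1.42e-05).

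**Figure D4:**
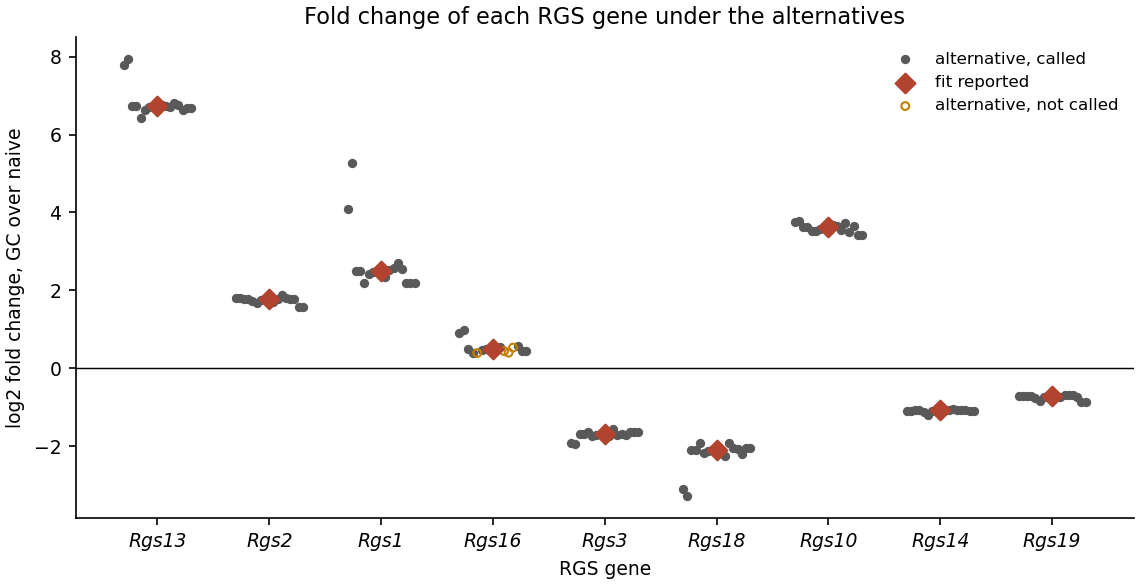
Log2 fold change of each RGS gene under the reported fit (red diamonds) and under each alternative setting (dots for called values, open circles for values not called). No gene crosses 0, 8 genes keep their call throughout, and Rgs16 has 4 values that are not called.

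The direction of every member was kept in all alternatives that gave a value, and 8 of the 9 members were called in each of 17. Rgs13 ranged from 6.43 to 7.95, Rgs10 from 3.42 to 3.77, Rgs2 from 1.57 to 1.89, Rgs3 from -1.94 to -1.57, Rgs14 from -1.19 to -1.05 and Rgs19 from -0.86 to -0.68. The ranges of Rgs1, from 2.19 to 5.28, and of Rgs18, from -3.28 to -1.93, were wider.

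Markers of other cells were measured beside these differences. The summed level of 9 T cell markers was 3.76 to 5.99 TPM in GC and 5.36 to 7.53 TPM in naive pools, and that of 8 myeloid markers was 13.9 to 16.2 and 8.74 to 14.1 TPM, with S100a8 and S100a9 listed at 0 in all pools. The higher myeloid sum in GC was carried by Cd68, at 13.1 ± 1.74 against 5.88 ± 1.05 TPM, whereas 3 others, Lyz2, Itgam and Emr1, were higher in all naive pools. Gut epithelial markers, 7 in number, summed to 48.04 to 107.9 TPM in GC, with the highest value in replicate 2, and to 119.3 to 152.4 TPM in naive pools, and 4 of them were higher in all naive pools and 1, Krt18, in all GC pools (3.23 ± 0.477 against 1.83 ± 0.387 TPM). The stroma and endothelium list of 6 genes summed to 22.6 to 24.7 and 122.1 to 132.5 TPM, and nearly all of it was Pecam1, at 23.3 ± 1.22 and 125.7 ± 5.56 TPM, while the collagens Col1a1, Col1a2 and Col3a1 were at or near 0. The plasma cell list of 4 genes summed to 683.9 to 720.0 TPM in GC and 105.7 to 124.4 TPM in naive pools. The naive sum was mostly Irf4, and the GC sum was carried by Igj, at 669.2 ± 20.3 TPM in GC and 33.3 ± 9.77 TPM in naive cells. Prdm1 was higher in all GC pools too (5.01 ± 0.28 against 0.955 ± 0.107 TPM), whereas Sdc1 (1.51 ± 0.527 against 3.19 ± 0.526 TPM) and Irf4 (21.7 ± 0.485 against 76.4 ± 5.46 TPM) were higher in all naive pools. The part of these cells in the RGS levels was not tested.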

How the data were processed

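RNA-Seq was analyzed from 3 GC and 3 naive B cell pools. Per the labels and methods, the authors demultiplexed reads with CASAVA 1.8, checked them with FastQC, trimmed adapters with cutadapt 1.9, quantified reads on the NCBIm38 v75 transcriptome with RSEM 1.2.25 (fragment length 180, SD 50) and deposited FPKM values with 2 decimals. The submitters' processing notes also name edgeR, without a role. The role of strand in counting was not given in the sources used here. Deposited FPKM were rescaled here so that each pool summed to 1000000, which gives TPM. No count test was made because whole reads could not be recovered. The populations were set against each other on log2(TPM + 1) by limma 3.58.1 (R 4.3.3) with a mean-variance trend and no block. The fit held 12785 genes that reached 1 TPM in 3 or more pools, and a gene was called when its Benjamini-Hochberg adjusted p was under 0.05. An exact permutation test of 3 against 3 pools cannot go below p = 0.10 and was not used. Estimated depth was 9550000 to 16050000 reads a pool. Other steps used Python 3.11.15. The fit was tested on simulated data.

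Gene symbols came from the annotation of NCBIM37, which named 33398 of 39179 identifiers, and coordinates and windows before transcript starts from RefSeq (GRCm38.p6). Of the listed genes, Rgs21, Ric8a and Ighd were not matched and are not reported here, nor are some other genes under the naming rule. Named genes were all members, other RGS-domain genes whose mean reached 1 TPM in either population, Gnai2, Gnai3, Gnaq, Gna13, Cxcr4, Cxcr5, Ccr7, Gpr183, S1pr1 and S1pr2, up to 4 called genes with the largest fold change from each further list, the 3 genes most like the members with the highest and the lowest fold change, and genes that check the sort. S1pr3, Gnb2l1 and the marker genes named singly were chosen after their values were seen. The members and lists were chosen with earlier results of these data known. Alternatives covered the pseudocount (0.1, 0.01), the filter (none, or 5 TPM), the deposited FPKM, quantile and median-of-ratios scaling, limma without a trend, the replicate number as a block, each pool left out in turn and, added after seeing the data, a correction for base composition and transcript length, also with the block.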

Additional observations from a re-analysis of the deposited data

How the results depend on the processing

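Of 152 alternative values of the members' log2 differences, 148 kept their direction and their side of the threshold. Counts of calls stayed within 1.5 times the reported count in all 136 alternatives, and all 9 members were called except in 5 settings with 8, in each of which Rgs16 lost its call or was not tested. Rgs16 was no longer called with quantile normalization (0.39 on the log2 scale) and without some pools (0.40 to 0.57 over the pools left out in turn), and with at least 5 TPM required it was not tested. The cause was not tested. The summed RGS level was 442.2 FPKM in GC and 262.6 FPKM in naive B cells on the deposited scale, which is another unit, and 600.7 scaled TPM in GC B cells after median-of-ratios scaling. The count of genes called ran from 7180 with the 5 TPM filter to 8639 without a filter, beside 8392. The balance of calls, 4540 higher and 3852 lower, was 4088 and 4455 with quantile normalization. It was 3729 and 4297 with the correction for GC content and length, which also tests fewer genes (11031) and has a median of -0.08 instead of 0.03. Replicate numbers were not said to mark shared mice, and same-numbered GC and naive pools deviated together only weakly (correlations 0.083, 0.0225 and 0.0456), so they were not taken as pairs. With the number as a replicate block 7960 genes and all 9 members were called, with Rgs16 at an adjusted p of 0.0485 (limma). For pools 1 and 3 of each population, and for GC pool 2 but not naive pool 2, the own number gave the highest correlation, a hint from the data and not from the design. Depth limits the members with a mean under 1 TPM, Rgs13, Rgs16 and Rgs1 in naive and Rgs18 in GC B cells, whose values rest on few reads.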
